A study of Mus musculus with 36 samples.

Results

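The libraries described here come from mouse embryos at E18.5, shortly before birth, and compare the intestines of 3 Casp8 1xDA/1xDA Cflar-/- Mlkl-/- embryos (labelled Casp8 D387A KI Cflar KO Mlkl KO, called mutants here) with those of 3 Mlkl-/- embryos of the same colony (labelled Mlkl KO, called controls). They were chosen by genotype, tissue and colony and make up 6 of the 36 libraries of the series. No embryo was treated, all were on a C57BL/6N background, and all 6 lacked Mlkl, so the groups differed in the caspase-8 D387A knock-in and in the loss of Cflar. The Cflar and Mlkl deletions were made with Cas9 in zygotes carrying the 1xDA allele and bred from a single mosaic founder, and the controls are described as littermates. Whole intestine was used, so every library mixes epithelium, muscle, nerve, connective tissue, vessels and blood cells, and the alleles were altered in all of them. For 2 comparisons the report also uses a second set of untreated E18.5 intestines, 3 Casp8 C362A/C362A Cflar-/- Mlkl-/- embryos with 3 Mlkl-/- controls of their own, and untreated mouse embryonic fibroblasts (MEFs), 3 cultures of the mutant genotype and 3 of Mlkl-/-. Other untreated E18.5 intestines, 3 of each genotype, entered the fits only to estimate the spread: Casp8 D387A KI alone, the mutant genotype that also lacked Casp1, Casp1 and Ifnar1, or Casp1 and Fadd, and Casp8 C362A KI Mlkl KO with and without Casp1. The Casp8 D387A KI embryos also served once as alternative controls. From them the mutants differ in the loss of Cflar and Mlkl and not in the knock-in, so this is another genotype contrast.

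Caspase-8 is a protease that starts cell death downstream of death receptors such as FAS and the TNF receptor. It also restrains necroptosis, a lytic form of death in which RIPK3 activates MLKL and MLKL breaks the plasma membrane. The protein cFLIP, encoded by Cflar, pairs with caspase-8 and sets how active the pair is, and in caspase-8 D387A the bond between the catalytic subunits cannot be cut. The intestine just before birth is already lined by absorptive enterocytes, which carry digestive enzymes on a brush border and pack fat into chylomicrons, beside goblet cells that secrete mucus, hormone-secreting cells and dividing cells between the villi.

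Each embryo gave 19713382 to 21766515 reads on genes, 86.0% to 88.0% of the library totals behind the authors' RPKM. A gene was called when edgeR's quasi-likelihood test gave an adjusted p under 0.05 and a log2 fold change (mutant over control) above 1 or below -1. The p-values of this comparison measure the spread between embryos of the same genotype, estimated over the 18 libraries fitted together. Levels are RPKM (reads scaled to gene length and to library size), computed from the deposited counts with TMM-scaled library sizes. They are given for embryos 1, 2 and 3 of a group in that order. The error after ± was worked back from the size of the change and its edgeR test statistic. It is not a coefficient standard error, so the errors of separate effects need not combine into that of their difference. Sex-linked genes marked control 2 and mutant 3 as male and the others as female. The intestinal marker Vil1, an actin-bundling protein of microvilli, was high in every library, at 328, 329.8 and 287 RPKM in controls and 222, 199.9 and 185 RPKM in mutants. Genes of neighbouring organs were high in single libraries. The gastric peptide Tff1 stood at 0.105, 0 and 146 RPKM in controls and 0.542, 0.281 and 3.18 RPKM in mutants, with control 3 far above the rest. The liver gene Alb stood at 3.05, 135 and 1.62 RPKM in controls and 0.170, 15.6 and 0.0393 RPKM in mutants, with control 2 and mutant 2 the highest of their groups.

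In the mutants 4078 of 18360 genes tested (22.2%) were called, 1726 (9.4%) of them higher and 2352 (12.8%) lower. The ranges of the groups did not overlap for 3991 of the called genes and for 68.1% of all genes tested. A further 6831 genes had an adjusted p under 0.05 and a change of less than 2-fold, and the median log2 fold change over all genes tested was -0.006. An unadjusted p under 0.05 was found by edgeR for 11609 of the 18360 genes. Most called changes were modest, with 1219 rises and 1422 falls between 1 and 2 on the log2 scale, while 21 rises and 43 falls exceeded 7. Genes called lower together took 29.6% to 31.4% of the reads in controls and 7.76% to 8.76% in mutants, whereas those called higher took 3.1% to 3.35% in controls and 12.2% to 12.3% in mutants. The number of genes that together held 50% of the reads was between 1000 and 1098 in controls and between 1417 and 1488 in mutants.

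**Figure D1:**
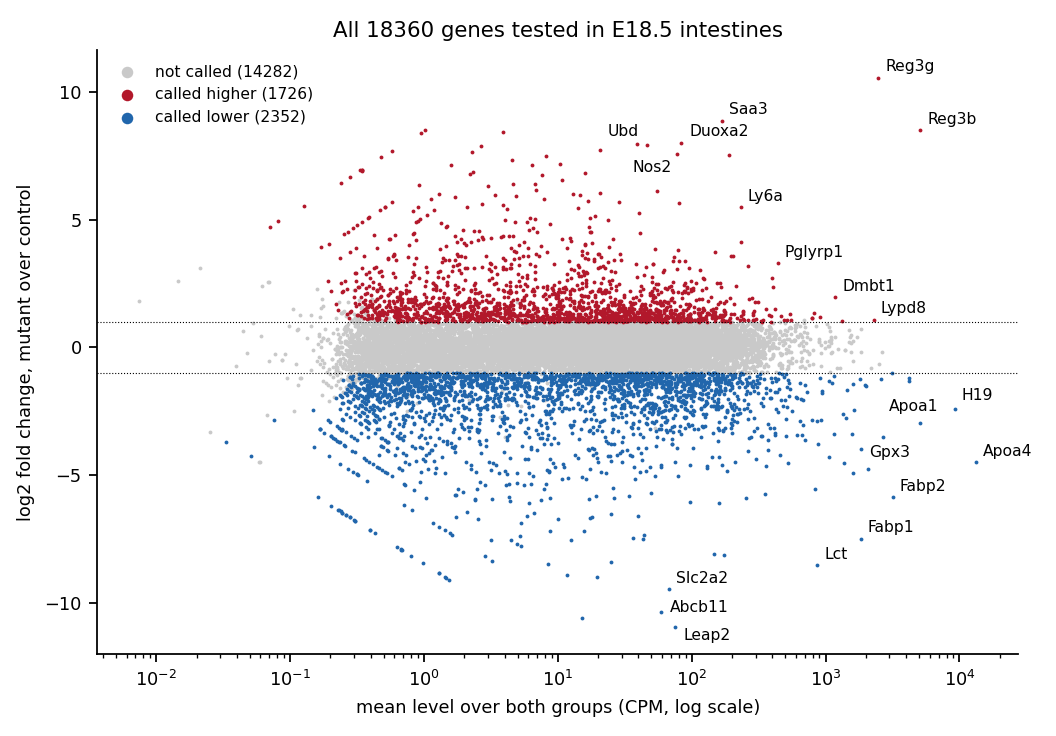
Log2 fold change (mutant over control) of each of the 18360 genes tested against its mean level over both groups in CPM on a log axis, with called genes in red (1726 higher) and blue (2352 lower) and dotted lines at 1 and -1. Lipid and brush border genes such as Apoa4, Fabp2 and Lct sit at the lower right, and Reg3g and Reg3b at the upper right.

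**Figure D2:**
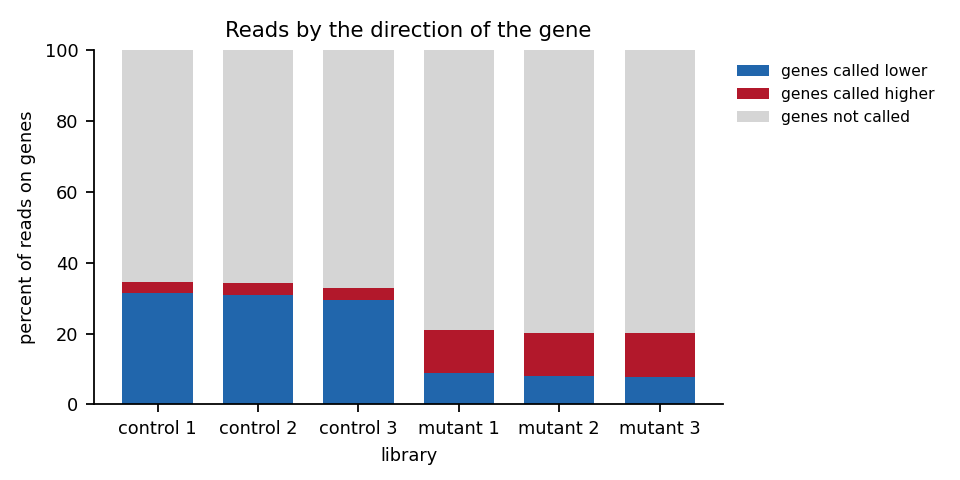
Percent of the reads on genes, in each of the 6 libraries, that fell on genes called lower (blue), called higher (red) or not called (grey). The blue share is 29.6% or more in every control and 8.76% or less in every mutant, and the red share is 3.35% or less in controls and 12.2% or more in mutants.

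Among the targeted genes, Casp8 stood at 25.9, 25.9 and 24.9 RPKM in controls and 42.4, 37.2 and 42.4 RPKM in mutants, a log2 fold change of 0.67 ± 0.11 that was not called. Cflar was still read in the mutants, at 4.69, 4.30 and 4.90 RPKM against 5.80, 6.42 and 6.02 RPKM in controls. Mlkl, which both groups lacked, rose from 2.44, 2.39 and 2.67 RPKM to 13.2, 11.1 and 13.4 RPKM (2.33 ± 0.52). Against the Casp8 D387A KI embryos, which are not labelled Mlkl KO, the change was 0.98 and not called. That contrast sets Mlkl KO embryos against embryos without the deletion. DESeq2 gave no p-value for this gene. A gene's total also counts reads on exons outside a deletion, so these values did not check the labels. In the list of death receptors, adaptors and ligands 8 of 25 tested genes rose and none fell, with a median log2 fold change of 0.52. Ripk3, the kinase that activates MLKL, went from 16.6, 18.3 and 17.2 RPKM to 50.4, 45.2 and 47.4 RPKM (1.46 ± 0.22). Zbp1, a nucleic acid sensor that engages RIPK3, went from 2.59, 3.98 and 2.91 RPKM to 47.6, 34.3 and 55.9 RPKM, with mutant 2 the lowest mutant. The ligand Tnfsf15 had 2 reads over the controls and 179 over the mutants, a ratio of 86.8 (95% interval 23.7 to 722). This interval and those below are exact (Clopper-Pearson) and cover counting error only. Tnfrsf1b, a receptor of TNF, and Birc3, an inhibitor of apoptosis that NF-kB induces, rose by 2.39 and 2.05 on the log2 scale. The adaptor Fadd and the kinase Ripk1 were not called, with log2 fold changes of -0.26 ± 0.08 and -0.13 ± 0.10.

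Of the genes of intrinsic apoptosis, which acts through mitochondria, 0 of 23 were called higher and 2 lower, and the median log2 fold change was -0.05. The share called lower was below the 12.8% of all genes tested. Casp6 went from 88.6, 91.7 and 87.1 RPKM to 22.1, 25.6 and 21.4 RPKM, and Casp9, the initiator of this pathway, from 15.5, 14.7 and 15.6 RPKM to 7.78, 7.42 and 6.72 RPKM. The pore-forming genes Bax and Bak1 had log2 fold changes of -0.24 ± 0.10 and 0.12 ± 0.12. Inflammasome genes split, with 9 of 29 tested higher and 6 lower. Casp1, the protease of the inflammasome, and its adaptor Pycard were not called, with log2 fold changes of -0.47 ± 0.14 and -0.44 ± 0.15. Among the 6 that fell, Nlrp9b, a sensor known from enterocytes, went from 6.27, 8.22 and 5.64 RPKM to 1.81, 1.26 and 1.25 RPKM, and Naip5, a receptor of bacterial flagellin, from 27.9, 29.6 and 27.6 RPKM to 8.27, 7.63 and 7.34 RPKM. Casp4, which binds bacterial lipopolysaccharide, rose by 1.81 and Nlrp3, a sensor of myeloid cells, by 2.08 on the log2 scale. Gsdmc4, which encodes a pore-forming gasdermin, rose from 0.797, 0.654 and 0.743 RPKM to 1.76, 2.61 and 6.03 RPKM and was highest in mutant 3, without which its log2 fold change was 1.58 and not 2.24. Naip and Gsdmc genes have close copies beside them, so the split of reads within each family is uncertain.

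Genes of absorptive enterocytes were lower. Of 27 brush border genes 19 fell and 1 rose, the median log2 fold change was -1.73, and the summed level of the list was 20888 to 23069 CPM (each gene's reads scaled to a common total of reads on genes) in controls and 3967 to 5121 CPM in mutants. Lct, which encodes the milk sugar enzyme lactase, stood at 303, 291 and 248 RPKM in controls and 0.958, 0.297 and 0.997 RPKM in mutants, a log2 fold change of -8.54 ± 0.49 (edgeR adjusted p = 1.88e-10). Alpi, intestinal alkaline phosphatase, stood at 539.9, 539.9 and 474 RPKM in controls and 58.2, 33.4 and 52.5 RPKM in mutants (-3.43 ± 0.20 on the log2 scale). Every control lay far above every mutant for both enzymes. Rbp2, the retinol carrier of enterocytes, went from 3912, 3890.0 and 3551 RPKM to 148, 121 and 110.5 RPKM. Treh, which splits the sugar trehalose, was low in controls at 0.911, 0.770 and 1.001 RPKM and had 3 reads in all mutants together, a ratio of control to mutant of 37.1 (95% interval 12.4 to 183). The microvillus cadherins Cdhr2 and Cdhr5 fell less, by 2.05 and 1.73 on the log2 scale. Sis, a sucrase that mice switch on at weaning, was low in both groups, at 0.279 to 0.353 RPKM in controls and 0.255 to 0.329 RPKM in mutants. The 1 member that rose was 2210407C18Rik, from 1.87, 1.29 and 34.3 RPKM to 115, 109.7 and 167 RPKM, and the high value of control 3 held its log2 fold change at 3.38, against 6.36 without that library. DESeq2 gave no p-value for this gene either.

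Of 26 genes of fat absorption tested 23 fell, none rose, and the median log2 fold change was -2.91. Their summed level was 54899 to 62488 CPM in controls and 3584 to 5952 CPM in mutants. Fabp1, a fatty acid carrier, stood at 6619, 6916 and 6331 RPKM in controls and 37.2, 37.7 and 34.3 RPKM in mutants (-7.51 ± 0.20 on the log2 scale, edgeR adjusted p = 8.12e-14). Fabp2, the second carrier of enterocytes, went from 6579, 6418 and 6427 RPKM to 133, 81.5 and 117 RPKM. The groups lay far apart for both genes. Apoa4, an apolipoprotein of chylomicrons and the member with the highest RPKM in controls, went from 14529.5, 15021 and 12719 RPKM to 883, 335 and 653 RPKM (-4.50 ± 0.29), and mutant 2 was the lowest. Apob, the structural protein of the chylomicron, and Mttp, which loads fat onto it, fell by 2.61 and 2.76 on the log2 scale. Dgat1, Dgat2 and Mogat2, which rebuild triglycerides inside the enterocyte, fell by 2.54, 3.77 and 3.46. Creb3l3, a transcription factor of lipid metabolism, went from 308, 317 and 274 RPKM to 30.3, 17.6 and 24.3 RPKM, and Pck1, of glycerol and glucose synthesis, from 122, 116 and 119 RPKM to 2.29, 1.92 and 1.04 RPKM. Apoe, Scarb1 and Sar1b were not called, with log2 fold changes of -0.17, -0.36 and -0.96, the last of which was called without mutant 1 (-1.02). In libraries of whole tissue, fewer enterocytes and less of these transcripts per enterocyte cannot be told apart.

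Genes of bile acid handling fell at several steps. Of 24 bile acid and sterol genes 11 fell and 2 rose, with a median log2 fold change of -0.37. Abcb11, a bile salt export pump best known from liver, stood at 23.6, 21.1 and 24.3 RPKM in controls and 0, 0.0174 and 0.0311 RPKM in mutants (edgeR adjusted p = 7.50e-09). Over the 3 embryos of each group this was 6969 reads against 6. Nr0b2, a repressor induced by the bile acid receptor, had 626 reads in controls and 3 in mutants, a ratio of 215 (95% interval 73.3 to 1046). Both genes were near 0 in every mutant. Fgf15, the hormone that tells the liver to make less bile acid, varied among controls, at 6.46, 15.5 and 3.48 RPKM, and stood at 0.215, 0.0988 and 0.221 RPKM in mutants. Nr1h4, which encodes the bile acid receptor FXR, fell by 1.67, the cytosolic carrier Fabp6 by 3.24, and the basolateral exporters Slc51a and Slc51b by 2.34 and 1.13 on the log2 scale. The importer moved the other way. Slc10a2, which takes bile acids up from the lumen, rose from 1.70, 1.56 and 1.26 RPKM to 12.6, 7.95 and 5.26 RPKM (2.51 ± 0.38). The other member that rose was Abca1, a cholesterol exporter, with a log2 fold change of 1.02 that dropped under the threshold without mutant 3 (0.83) or control 1 (0.92). Insig1 and Fdps of sterol synthesis fell by 1.79 and 1.31.

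Of 36 nutrient and ion transporters 21 fell and 7 rose, with a median log2 fold change of -1.47. Slc2a2, the glucose transporter GLUT2 of the basolateral membrane, stood at 23.6, 22.9 and 26.3 RPKM in controls and 0.0155, 0.0562 and 0.0287 RPKM in mutants (-9.48 ± 0.53, edgeR adjusted p = 1.66e-10). The apical glucose transporter Slc5a1 went from 101, 100.1 and 94.5 RPKM to 42.1, 38.05 and 32.3 RPKM, a log2 fold change of -1.40 ± 0.12. The peptide transporter Slc15a1 went from 19.6, 19.02 and 18.1 RPKM to 5.02, 3.61 and 2.51 RPKM. Slc23a1, for vitamin C, fell by 6.52 on the log2 scale, and Slc6a19, for neutral amino acids, fell by 4.28. Slc19a3, for thiamine, fell by 3.79, and Slc46a1, for folate, fell by 2.73. The iron transporters Slc11a2 and Slc40a1 fell by 2.41 and 1.54. Among the 7 members that rose, Slc2a1, the general glucose transporter GLUT1, went from 36.5, 33.7 and 37.6 RPKM to 126, 172 and 114 RPKM (1.93 ± 0.14). Slc7a5, for large neutral amino acids, went from 8.86, 9.13 and 9.001 RPKM to 32.6, 37.4 and 47.6 RPKM, and Slc7a11, the cystine importer, from 0.0461, 0.0747 and 0.0508 RPKM to 0.741, 0.831 and 0.986 RPKM.

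Detoxification genes fell as well, with 21 of 31 lower, 1 higher and a median log2 fold change of -1.45. Adh1, an alcohol dehydrogenase that also acts on retinol, went from 231, 209.9 and 172 RPKM to 9.38, 18.46 and 3.59 RPKM. Gstm3, a glutathione transferase, went from 43.1, 41.2 and 35.4 RPKM to 1.91, 3.14 and 1.43 RPKM, and Abcc2, an apical exporter of conjugates, from 69.7, 60.4 and 59.7 RPKM to 6.90, 5.54 and 4.23 RPKM. The member that rose was Gpx2, the glutathione peroxidase of the gut epithelium, from 26.3, 22.1 and 23.2 RPKM to 359.8, 471 and 413 RPKM (4.12 ± 0.38, edgeR adjusted p = 6.62e-08). Of transcription factors of the intestine, Cdx2, which sets intestinal identity, stood at 155, 152 and 134 RPKM in controls and 102, 104 and 95.5 RPKM in mutants. Hnf4a, a nuclear receptor that drives enterocyte genes, stood at 157, 149 and 135 RPKM and 125, 111 and 98.6 RPKM. Their log2 fold changes of -0.55 ± 0.08 and -0.40 ± 0.11 did not reach the threshold. The groups did not overlap for either, which held for 68.1% of all genes tested. Of 34 factors 11 fell and 6 rose. Those that fell included Maf, by 2.32, Prdm1, which holds the suckling program of enterocytes, by 1.68, and Gata5 and Gata6, by 1.22 and 1.42. Those that rose were Ascl2 (2.29), Foxa3 (1.55), Pparg (1.47), Foxa1 (1.15), Sox9 (1.13) and Klf5 (1.07).

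**Figure D3:**
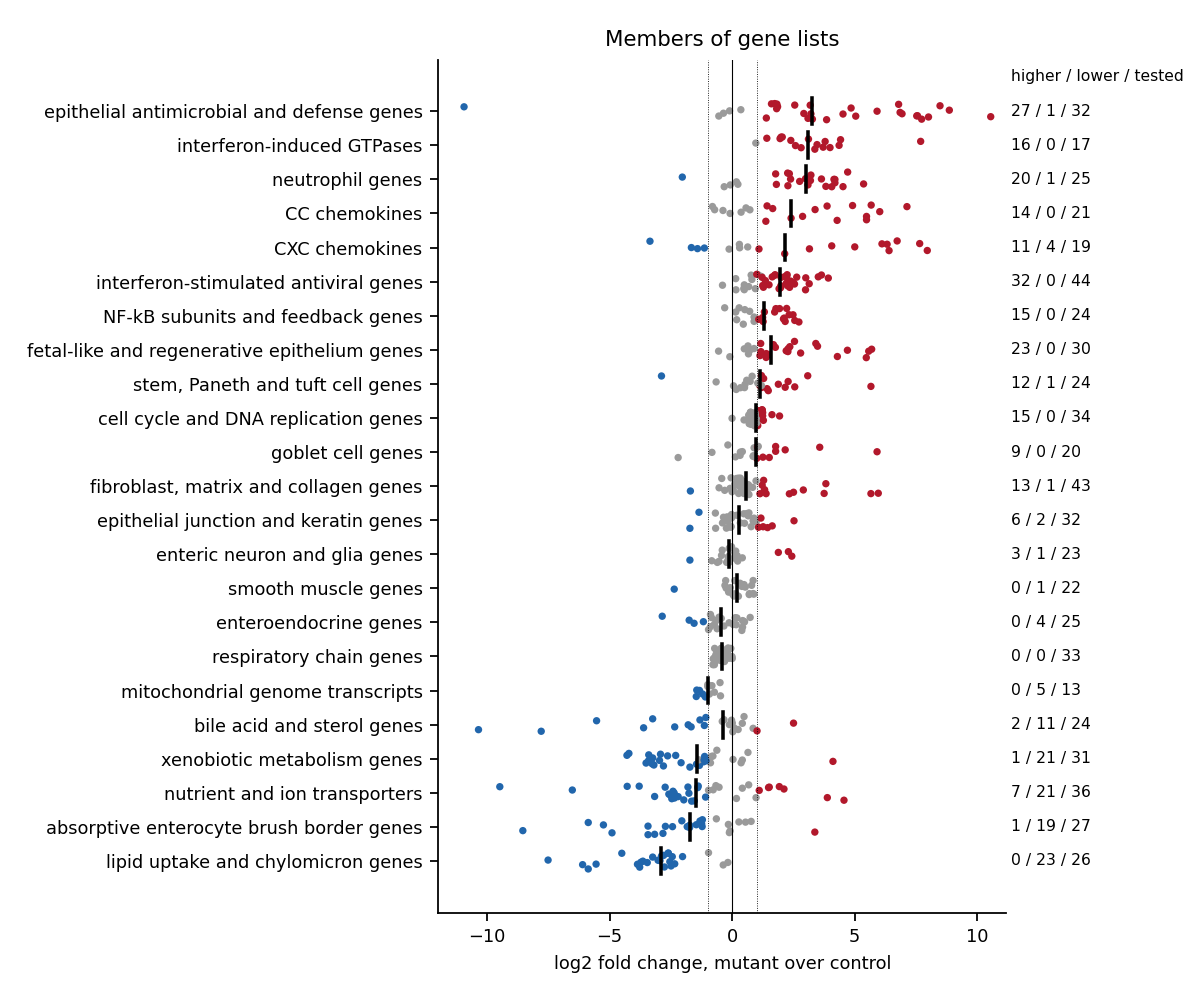
Log2 fold change (mutant over control) of every tested member of 23 gene lists, 1 point a gene, red where called higher, blue where called lower and grey where not called, with a black bar at the list's median and counts at the right. Lipid and brush border genes lie left of -1 for the most part, smooth muscle and nerve genes lie around 0, and antimicrobial genes and interferon-induced GTPases have medians of 3.25 and 3.12.

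Of 20 goblet cell genes 9 rose and none fell, with a median log2 fold change of 0.96, and their summed level was 2976 to 4114 CPM in controls and 4536 to 5940.5 CPM in mutants. Without control 3, the highest control in that sum, 14 of them were called higher. Against the Casp8 D387A KI embryos 2 were called lower. With both Mlkl-/- groups pooled, with no filter or with the sex of the embryo as a term, 1 was called lower. Best2, a chloride channel of goblet cells, had overlapping groups at 1.21, 0.0948 and 0.677 RPKM in controls and 0.0390, 0.403 and 0 RPKM in mutants, and its log2 fold change of -2.20 was called without control 2 (-2.70) or mutant 2 (-4.96). Muc2, the main gel-forming mucin of the gut, went from 48.3, 23.3 and 63.9 RPKM to 188, 145 and 132 RPKM (1.78 ± 0.42), and Muc3, a membrane mucin, from 20.7, 12.02 and 17.7 RPKM to 227, 188 and 187 RPKM (3.58 ± 0.64). Retnlb, a goblet cell product that kills bacteria, was near 0 in controls, at 0.290, 0 and 0.360 RPKM, and stood at 14.7, 7.65 and 18.9 RPKM in mutants. Of 25 enteroendocrine genes 4 fell, a share near that of all genes tested, and none rose, with 7 lower when mutant 3 was left out, and the summed level of 572 to 702 CPM in controls overlapped that of 529 to 702 CPM in mutants. Gcg, which encodes glucagon and GLP-1, stood at 18.4, 25.3 and 29.0 RPKM in controls and 32.5, 22.3 and 27.0 RPKM in mutants. Gip, a hormone released after meals, fell from 60.03, 60.6 and 68.5 RPKM to 19.4, 16.3 and 28.9 RPKM. The progenitor factor Neurog3 fell from 1.80, 1.67 and 1.62 RPKM to 0.421, 0.348 and 0.727 RPKM, and every control lay above every mutant for both. The other members that fell were the factor Pax4, from 0.442, 0.575 and 0.402 RPKM to 0.0315, 0.0326 and 0.117 RPKM, and Vwa5b2, by 1.17 on the log2 scale.

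Genes of stem, Paneth and tuft cells were higher, with 12 of 24 called higher, 1 lower and a median log2 fold change of 1.16. Lgr5, the receptor that marks intestinal stem cells, went from 2.90, 2.43 and 2.57 RPKM to 5.73, 10.6 and 5.72 RPKM (1.48 ± 0.23). Olfm4, another gene of the stem cell zone, went from 30, 28.6 and 34.7 RPKM to 95.5, 151 and 99.4 RPKM, and mutant 2 was the highest for both. Mmp7, the protease that activates Paneth cell defensins, stood at 0.991, 2.75 and 4.92 RPKM in controls and 141, 167 and 133 RPKM in mutants (edgeR adjusted p = 4.18e-07). The member that fell was Tert, the catalytic subunit of telomerase, from 9.21, 8.70 and 8.24 RPKM to 1.64, 0.829 and 1.07 RPKM. In a list of genes of fetal-like or regenerating epithelium 23 of 30 rose, none fell, the median log2 fold change was 1.58, and the summed level was 1807 to 1891 CPM in controls and 4743 to 5031 CPM in mutants. Ly6a, known as Sca-1 and switched on in injured gut, went from 11.4, 9.63 and 9.36 RPKM to 443, 395 and 517 RPKM (5.48 ± 0.55). Ankrd1, a target of the growth regulator YAP, went from 0.0857, 0.149 and 0.0283 RPKM to 3.82, 5.57 and 3.56 RPKM, with mutant 2 again the highest. The epidermal growth factor ligands Areg and Ereg rose by 3.49 and 2.80 on the log2 scale. Several of these genes are also made by cells outside the epithelium, and how much each cell type gave was not tested.

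Of structural genes of epithelium, Cdh1, which encodes E-cadherin, stood at 126, 117 and 118 RPKM in controls and 166, 182 and 166 RPKM in mutants (0.51 ± 0.09, not called). Of 32 junction and keratin genes 6 rose and 2 fell, a share of called genes near that of all genes tested, and their summed level was 7147 to 7856 CPM in controls and 9330.0 to 9770.1 CPM in mutants. Cldn4, a claudin of tight junctions, went from 26.1, 25.9 and 27.3 RPKM to 174, 125 and 159 RPKM (2.53 ± 0.33), while Cldn1 and Cldn8 fell by 1.72 and 1.35. Itga6, a laminin receptor chain, went from 10.9, 10.3 and 10.7 RPKM to 34.9, 32.0 and 32.2 RPKM. Cell cycle genes were higher too. Of 34 tested 15 rose and none fell, and the median log2 fold change was 0.98. The groups did not overlap for 33 of them, against 68.1% of all genes tested. Myc, a driver of growth, went from 13.5, 16.9 and 12.6 RPKM to 47.5, 57.7 and 59.99 RPKM (1.94 ± 0.14). Rrm2, which makes deoxynucleotides, went from 19.01, 18.1 and 17.2 RPKM to 52.7, 62.2 and 53.3 RPKM. Mki67, a marker of dividing cells, ended just under the threshold, at 21.3, 21.9 and 19.3 RPKM in controls and 37.9, 45.0 and 35.0 RPKM in mutants (0.91 ± 0.15).

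**Figure D4:**
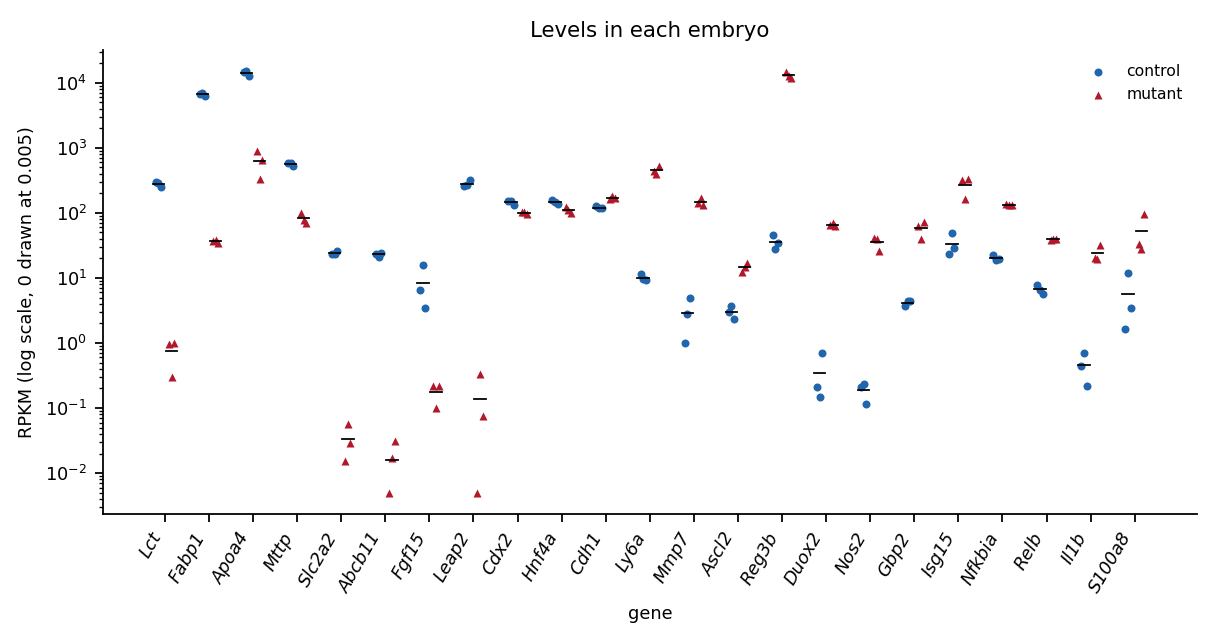
RPKM on a log axis (0 drawn at 0.005) of 23 genes in each embryo, controls as blue circles and mutants as red triangles, with a black bar at the group mean. Lct, Fabp1, Slc2a2, Abcb11 and Leap2 fall furthest, Cdx2, Hnf4a and Cdh1 lie close together, and Reg3b, Duox2 and Nos2 separate in the other direction.

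Antimicrobial and defense genes of the epithelium rose. Of 32 tested 27 rose and 1 fell, the median log2 fold change was 3.25, and the summed level was 667 to 743 CPM in controls and 16759 to 19985 CPM in mutants. The largest rise of all genes tested was that of Reg3g, a lectin secreted against bacteria, from 5.17, 3.41 and 4.15 RPKM to 6737, 6912 and 5633 RPKM (10.56 ± 0.65). Its relative Reg3b stood at 45.7, 27.4 and 34.9 RPKM in controls and 14462, 12672 and 11844 RPKM in mutants (8.49 ± 0.53, edgeR adjusted p = 5.14e-10), and it gained more CPM than any other gene tested. The oxidase Duox2, which releases hydrogen peroxide into the lumen, went from 0.211, 0.146 and 0.697 RPKM to 65.3, 69.3 and 63.1 RPKM, and its maturation factor Duoxa2 from 0.190, 0.165 and 0.817 RPKM to 109, 94.8 and 106 RPKM. Control 3 was the highest control for both and was far below every mutant. Saa3, an acute phase protein made locally, went from 0.387, 0.242 and 0.192 RPKM to 164, 104 and 120.2 RPKM. Pglyrp1, which binds bacterial cell walls, was already abundant in controls, at 127, 113 and 112 RPKM, and stood at 1109, 1300.5 and 1020.4 RPKM in mutants. Pla2g2a, a phospholipase that kills bacteria, had 2 reads in controls and 310 in mutants, a ratio of 150 (95% interval 41.3 to 1247). Ang4, a ribonuclease of Paneth and goblet cells, went from 0.853, 1.48 and 1.97 RPKM to 36.5, 26.9 and 79.8 RPKM. The member that fell was Leap2, a peptide of liver and gut that blocks the ghrelin receptor, from 258, 269 and 321 RPKM to 0, 0.337 and 0.0753 RPKM.

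Of 26 acute phase and complement genes 14 rose and 4 fell, with a median log2 fold change of 1.67. Serpina3n, a protease inhibitor, and Cp, a copper carrier, rose by 5.96 and 4.06. Complement C3 went from 6.76, 14.8 and 8.87 RPKM to 105, 97.4 and 75.9 RPKM (3.19 ± 0.49), and control 2 was the highest control. C1ra, C1s1 and C4b of the classical pathway rose by 3.12, 2.76 and 3.25. Cfb of the alternative pathway was not called, at 5.62 to 6.91 RPKM in controls and 5.57 to 6.28 RPKM in mutants. The members that fell were Cfi, which inactivates complement, by 2.12, C2, by 1.12, which lost its call without mutant 2 (-0.95), and the fibrinogen chains Fga and Fgb. Fga went from 14.7, 20.7 and 10.97 RPKM to 0.344, 2.81 and 0.252 RPKM and Fgb from 7.04, 13.8 and 5.20 RPKM to 0.589, 2.10 and 0.315 RPKM. Liver makes most fibrinogen, and control 2 and mutant 2, the embryos with the most Alb, were the highest of their groups for both chains. The part of liver RNA in the fibrinogen values was not tested.

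Chemokines of both main families rose. Of 19 CXC chemokine genes, among them CX3C and receptor genes, 11 rose and 4 fell, with a median log2 fold change of 2.15, and of 21 CC chemokine genes 14 rose and none fell, with a median of 2.41. Cxcl1, a ligand of the neutrophil receptor CXCR2, went from 0.106, 0.110 and 0.105 RPKM to 7.20, 14.5 and 7.13 RPKM. Cxcl10, a ligand of the lymphocyte receptor CXCR3, went from 0.697, 1.38 and 0.987 RPKM to 76.0, 51.9 and 84.98 RPKM. Mutant 2 was the highest mutant for Cxcl1 and the lowest for Cxcl10. Ccl2, which draws monocytes, went from 0.930, 1.03 and 0.308 RPKM to 44.0, 47.3 and 58.2 RPKM (6.03 ± 0.37, edgeR adjusted p = 4.68e-10). Ccl20, an epithelial ligand of the receptor CCR6, went from 1.99, 2.51 and 2.29 RPKM to 28.0, 24 and 19.3 RPKM (3.39 ± 0.28). The members that fell were the membrane-bound ligand Cx3cl1, from 45.9, 44.0 and 40.9 RPKM to 17.9, 15.5 and 15.9 RPKM, Cxcl14, whose log2 fold change of -1.13 lost its call without mutant 2 (-0.92), Cxcl15, with 37 reads in controls and 4 in mutants, and the receptor Cxcr3, by 1.66.

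In the IL-1 family 10 of 17 tested genes rose and 2 fell, with a median log2 fold change of 1.30. Il1b, the main ligand released by inflammasomes, went from 0.446, 0.697 and 0.221 RPKM to 20.5, 19.6 and 32.5 RPKM (5.73 ± 0.37). Il1a, which acts on the same receptor, stood at 4.37, 3.73 and 4.41 RPKM in controls and 2.17, 1.36 and 2.92 RPKM in mutants and was not called (-0.95 ± 0.40, edgeR adjusted p = 0.0517). Without mutant 3 it was called lower (-1.24, edgeR adjusted p = 0.0339). Il18, which the epithelium makes constantly, went from 42.8, 33.9 and 41.0 RPKM to 22.7, 19.4 and 14.96 RPKM, and its log2 fold change of -1.05 was -0.90 without mutant 3 and -0.97 without control 1. Il1rn, the receptor antagonist, went from 0.410, 0.214 and 0.758 RPKM to 9.99, 9.23 and 17.3 RPKM. Il1r2, the decoy receptor, went from 0.782, 1.04 and 0.952 RPKM to 14.6, 15.2 and 20.1 RPKM. Mutant 3 was the highest for both, and Il18bp, which binds IL-18, rose by 1.92. Sigirr, a negative regulator of the receptors, was the other member that fell, from 33.9, 32.2 and 28.8 RPKM to 8.80, 9.95 and 8.01 RPKM.

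Among other cytokines 10 of 27 rose and 3 fell. With a minimum mean of 50 reads 4 were called higher. Csf3, the growth factor of neutrophils, had no read in controls and 47 in mutants, at least 15.2-fold higher with the control group set at 3 reads. Il11, a relative of IL-6, rose by 2.77 on the log2 scale. Il22, which drives Reg3 genes in the adult gut, was too low to test, with 0 reads in controls and 6 in mutants. The chains of its receptor fell. Il10rb went from 84.4, 83.5 and 77.6 RPKM to 28.4, 25.3 and 28.4 RPKM, and Il22ra1 from 18.2, 18.6 and 16.9 RPKM to 10.8, 6.18 and 8.87 RPKM, a log2 fold change of -1.05 that was -0.86 without mutant 2. The other member that fell was Csf2, by 2.16, with -2.76 without mutant 1. The NF-kB list holds subunits of this transcription factor and genes it induces that act back on it. Of 24 tested 15 rose and none fell, with a median log2 fold change of 1.30 and a summed level of 653 to 702 CPM in controls and 1593 to 1635 CPM in mutants. Nfkbia, the inhibitor that NF-kB induces, went from 22.2, 18.6 and 19.4 RPKM to 139, 130.1 and 131 RPKM (2.73 ± 0.25, edgeR adjusted p = 7.15e-08). Relb, a subunit of the non-canonical pathway, went from 7.78, 6.61 and 5.56 RPKM to 38.6, 39.9 and 39.2 RPKM, and Nfkb2, its partner, from 9.49, 9.46 and 8.93 RPKM to 45.5, 49.6 and 44.7 RPKM. The mutants differed little from each other for these genes. Tnfaip3, which encodes the inhibitor A20, rose by 1.74, and the adhesion molecule Icam1 by 2.49.

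Interferon-induced genes rose. Of 44 antiviral genes 32 rose and none fell, with a median log2 fold change of 1.95, and of 17 GTPases that attack intracellular microbes 16 rose and none fell, with a median of 3.12. The summed level of the GTPases was 154 to 197 CPM in controls and 757 to 1174 CPM in mutants. Isg15, a ubiquitin-like protein, went from 23.3, 48.7 and 28.4 RPKM to 317, 165 and 327 RPKM (3.01 ± 0.64). Ifi27l2a, an interferon target, went from 29.3, 20.5 and 27.2 RPKM to 306, 249 and 329.6 RPKM, and Gbp2, a guanylate-binding protein, from 3.69, 4.43 and 4.45 RPKM to 62.1, 40.0 and 73.1 RPKM (3.80 ± 0.34). Igtp, an immunity-related GTPase, went from 7.95, 14.7 and 10.5 RPKM to 65.0, 44.0 and 65.8 RPKM. Mutant 2 was the lowest mutant for all 4 genes, and control 2 the highest control for Isg15 and Igtp. Gbp10 had no read in controls and 82 in mutants, at least 26.5-fold higher with the control group set at 3 reads. The interferon genes themselves gave few reads and were not tested. Over the 3 embryos of each group, controls first, Ifnb1 had 0 and 1 reads, Ifng 1 and 9, and Ifnl3 1 and 1. Ifnlr1, the receptor chain for interferon lambda, fell from 10.1, 9.72 and 9.78 RPKM to 3.19, 2.24 and 2.50 RPKM, and the feedback inhibitors Socs1 and Usp18 rose by 1.62 and 2.20.

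Promoters of 7 genes are shown because the groups that rose or fell are known targets of different transcription factors. The 250 bases before the gene start are printed from RefSeq (GRCm38.p6), 5′ to 3′ on the strand of the gene, and capitals mark motifs searched on both strands. For Cxcl1 (chr5:90890995-90891244, plus strand) they mark the kB motif of NF-kB, which is GGG, any 3 bases and TTCC. For Cxcl10 (chr5:92348890-92349139, minus strand) they mark kB and the interferon-stimulated response element (ISRE), which is TTTC, any 2 bases and TTTC. For Isg15 (chr4:156200819-156201068, minus strand) and Gbp2 (chr3:142620413-142620662, plus strand) they mark the ISRE. For Igtp (chr11:58199306-58199555, plus strand) they mark the ISRE and the STAT motif GAS, which is TTC, any 3 bases and GAA, and for Reg3b (chr6:78370635-78370884, plus strand) they mark GAS. For Alpi (chr1:87101607-87101856, minus strand) they mark the HNF4 motif.
Cxcl1: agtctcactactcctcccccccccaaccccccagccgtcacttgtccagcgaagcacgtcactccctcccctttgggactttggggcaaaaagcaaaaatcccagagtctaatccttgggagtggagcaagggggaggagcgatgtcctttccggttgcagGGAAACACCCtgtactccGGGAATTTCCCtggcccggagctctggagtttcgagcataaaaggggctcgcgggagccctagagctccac
Cxcl10: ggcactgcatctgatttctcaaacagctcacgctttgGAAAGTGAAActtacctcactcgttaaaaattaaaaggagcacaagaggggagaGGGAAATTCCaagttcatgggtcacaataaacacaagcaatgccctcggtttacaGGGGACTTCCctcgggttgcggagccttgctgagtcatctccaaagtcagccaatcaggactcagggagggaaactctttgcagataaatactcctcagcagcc
Isg15: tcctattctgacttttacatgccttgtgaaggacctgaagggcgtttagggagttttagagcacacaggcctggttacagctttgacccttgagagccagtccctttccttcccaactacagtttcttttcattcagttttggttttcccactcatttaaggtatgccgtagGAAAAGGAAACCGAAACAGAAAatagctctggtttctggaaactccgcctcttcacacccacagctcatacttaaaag
Gbp2: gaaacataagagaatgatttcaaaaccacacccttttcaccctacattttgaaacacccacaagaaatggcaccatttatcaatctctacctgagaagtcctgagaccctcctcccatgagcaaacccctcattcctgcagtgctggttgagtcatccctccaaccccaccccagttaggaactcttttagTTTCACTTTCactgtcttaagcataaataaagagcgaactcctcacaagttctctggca
Igtp: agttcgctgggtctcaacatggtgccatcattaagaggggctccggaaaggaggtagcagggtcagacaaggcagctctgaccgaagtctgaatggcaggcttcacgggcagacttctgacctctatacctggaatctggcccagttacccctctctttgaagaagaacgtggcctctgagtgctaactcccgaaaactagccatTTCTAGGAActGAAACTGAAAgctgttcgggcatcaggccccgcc
Reg3b: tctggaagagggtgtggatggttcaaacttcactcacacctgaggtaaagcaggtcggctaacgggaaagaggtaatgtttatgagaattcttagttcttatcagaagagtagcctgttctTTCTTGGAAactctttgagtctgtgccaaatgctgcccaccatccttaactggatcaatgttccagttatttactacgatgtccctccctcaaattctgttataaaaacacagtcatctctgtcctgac
Alpi: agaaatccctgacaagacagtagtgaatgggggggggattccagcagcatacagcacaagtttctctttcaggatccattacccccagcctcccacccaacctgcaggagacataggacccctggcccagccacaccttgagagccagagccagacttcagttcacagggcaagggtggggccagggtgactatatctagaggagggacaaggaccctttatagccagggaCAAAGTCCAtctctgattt
Cxcl1 has kB matches on both strands close to its start, and Isg15 has 3 ISRE matches that overlap. Alpi also holds a kB and an ISRE match, which are not in capitals. Over windows of 300 bases around gene starts, the kB motif was in 4 of 8 windows (50%) of CXC list genes that rose, against 5.56% of all 32851 windows. The same windows held the ISRE in 1 (12.5%) and GAS in none. The kB motif was also in 7 of 30 windows (23.3%) of antiviral genes and in 2 of 11 windows (18.2%) of GTPases that rose. The ISRE was in 15 of 30 windows (50%) of antiviral genes that rose and in 9 of 11 windows (81.8%) of GTPases that rose, against 3.44% of all windows. GAS was in 6 of 11 windows (54.5%) of these GTPases and in 4 of 30 windows (13.3%) of the antiviral genes, against 8.3% of all windows. Antimicrobial genes that rose lay nearer to the background, with kB in 2 of 23 windows (8.7%), the ISRE in 1 (4.35%) and GAS in 3 (13%). Brush border genes that fell held kB, the ISRE and GAS in 2 of 22 windows (9.09%) each, and lipid genes that fell held kB in 2 of 21 (9.52%). The HNF4 motif, CAAAGTCCA, was in 2 of 22 windows (9.09%) of brush border genes that fell and in none of 21 windows of lipid genes that fell, against 0.475% of all windows. The HNF1 motif, which is TTAAT, any base and ATT, was in 1 brush border window (4.55%), in 1 lipid window (4.76%) and in 1.47% of all windows. Some genes have more than 1 window, members of a family share sequence, and a match describes letters, not a bound site.

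Antigen presentation genes rose in part. Of 29 tested 12 rose and 2 fell, with a median log2 fold change of 0.89. Nlrc5, the activator of class I genes, went from 0.230, 0.278 and 0.222 RPKM to 4.43, 3.39 and 4.67 RPKM (4.10 ± 0.56). B2m, the shared light chain of class I molecules, went from 552, 604 and 556 RPKM to 1279, 1159 and 1398 RPKM, a log2 fold change of 1.16 that was 0.89 and not called against the Casp8 D387A KI embryos, and the peptide pump Tap1 rose by 2.51. The non-classical genes of the H2-Q cluster moved apart. H2-Q7 went from 0.722, 0.684 and 0.619 RPKM to 24.1, 23.9 and 24.5 RPKM, and H2-Q6 rose by 4.99. H2-Q2 fell from 96.2, 84.8 and 94.4 RPKM to 11.3, 8.43 and 9.25 RPKM, and H2-Q1 from 22.8, 22.1 and 20.2 RPKM to 1.29, 0.242 and 0.609 RPKM. These genes are close copies whose reads cannot be assigned with certainty. The classical genes H2-K1 and H2-D1 were not called, with log2 fold changes of 0.41 ± 0.26 and 0.96 ± 0.30, the latter reaching 1.01 and a call without mutant 2. Among genes that restrain immune cells or make prostaglandins 16 of 21 rose and none fell. Cd274, which encodes PD-L1, went from 0.682, 0.943 and 0.759 RPKM to 4.47, 3.16 and 5.43 RPKM. Ido1, which breaks down tryptophan, had 3 reads in controls and 657 in mutants, a ratio of 212 (95% interval 72.4 to 1033). Both genes were lowest in mutant 2 among the mutants. Of 25 Toll-like receptor and adaptor genes 14 rose, among them Tlr2, a receptor of bacterial lipoproteins, from 0.953, 0.871 and 1.54 RPKM to 5.42, 4.14 and 4.999 RPKM. The member that fell was Tlr5, the flagellin receptor, from 4.66, 4.88 and 4.62 RPKM to 0.844, 1.11 and 0.762 RPKM.

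Markers of blood cells differed by type. Of 25 neutrophil genes 20 rose and 1 fell, with a median log2 fold change of 3.00 and a summed level of 43.1 to 68.2 CPM in controls and 205 to 414 CPM in mutants. S100a8, a calcium-binding protein that fills neutrophils, stood at 1.66, 12 and 3.50 RPKM in controls and 33.6, 27.8 and 97.3 RPKM in mutants, with control 2 and mutant 3 the highest of their groups. Csf3r, the receptor of neutrophil growth factor, went from 0.374, 0.435 and 0.414 RPKM to 1.22, 0.829 and 2.14 RPKM. Lcn2, which starves bacteria of iron and is also made by epithelium, went from 1.05, 2.47 and 1.31 RPKM to 35.7, 24.5 and 51.2 RPKM. The member that fell was Mpo, of immature neutrophils, with overlapping groups at 0.0347, 0.452 and 0.138 RPKM in controls and 0.0892, 0.0308 and 0.0275 RPKM in mutants, and its log2 fold change of -2.03 was -0.79 and not called without control 2, nor was it called without mutant 2 (-1.81) or mutant 3 (-1.74). In the macrophage and monocyte list 17 of 35 genes rose and 2 fell, and the summed level was 599 to 643 CPM in controls and 741 to 1038 CPM in mutants. Csf1r, on whose signal resident macrophages depend, fell from 56.6, 56.8 and 52.9 RPKM to 13.97, 13.2 and 19.6 RPKM. Folr2, a marker of resident macrophages, fell from 4.32, 3.22 and 3.33 RPKM to 1.24, 1.02 and 1.76 RPKM. By contrast, Adgre1, the first member of the list, was called higher, by 1.03 on the log2 scale. The scavenger receptor Marco went from 0, 0.218 and 0 RPKM to 12.1, 9.87 and 9.86 RPKM.

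Lymphocyte genes were sparse, with a summed level of 111 to 124 CPM in controls and 81.6 to 101 CPM in mutants. The T cell marker Cd3e had 10 reads over the controls and 3 over the mutants. Of 20 tested 5 rose and 3 fell. All those that rose are known from cytotoxic cells. Gzmb, a granule protease, went from 0.492, 0.0366 and 0.697 RPKM to 10.1, 9.49 and 15.6 RPKM. Gzmc had 1 read in controls and 371 in mutants, a ratio of 360 (95% interval 64.2 to 14251), and Prf1, which encodes perforin, had 1 and 223, a ratio of 216 (95% interval 38.4 to 8581). Gzma and Il2rb rose by 2.04 and 1.25, and the call of Il2rb was lost with both Mlkl-/- groups pooled (0.95). Among those that fell, Il7r, which lymphocytes and innate lymphoid cells need to survive, went from 0.550, 0.491 and 0.483 RPKM to 0.162, 0.167 and 0.237 RPKM, a log2 fold change of -1.42 that was -0.13 and not called against the Casp8 D387A KI embryos. Another was Trdc, a T cell receptor segment, whose log2 fold change of -2.10 lost its call without control 3 (edgeR adjusted p = 0.0755). Of 15 mast cell, eosinophil and platelet genes 8 rose and 1 fell. The number higher was 5 in a fit of the 6 libraries alone and 4 with a minimum mean of 50 reads. Among those that rose, the mast cell protease Mcpt1 went from 0.883, 0.715 and 0.827 RPKM to 4.28, 5.96 and 9.99 RPKM. The platelet gene Gp9 fell from 2.12, 1.79 and 2.10 RPKM to 0.931, 0.304 and 0.272 RPKM. No erythroid gene of 15 was called by edgeR, DESeq2 or limma-voom, and 2 had an unadjusted p under 0.05. The part that numbers of immune cells had in these changes was not tested.

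Muscle and nerve form the outer wall. Of 22 smooth muscle genes edgeR called none higher, although 10 were higher with an unadjusted p under 0.05, DESeq2 and limma-voom called 0 and 4 were called with both Mlkl-/- groups pooled as controls, and 1 fell, Pln, from 0.859, 0.952 and 1.45 RPKM to 0.203, 0.227 and 0.203 RPKM. Their median log2 fold change was 0.21, and their summed level was 9016 to 9959.6 CPM in controls and 11462 to 13823 CPM in mutants. Acta2, smooth muscle actin, stood at 809.8, 811 and 869 RPKM in controls and 969, 1196 and 1112 RPKM in mutants and was not called. Of 23 enteric neuron and glia genes 3 rose and 1 fell, a share of called genes below the 22.2% of all genes tested, with a median of -0.11 and a summed level of 852 to 871 CPM in controls and 823 to 865 CPM in mutants. Vip, a neuropeptide that stimulates secretion, rose from 12.7, 14.4 and 16.3 RPKM to 55.5, 69.4 and 89.5 RPKM. The glial filament Gfap rose from 0.0867, 0.194 and 0.111 RPKM to 0.530, 0.703 and 0.893 RPKM, and mutant 3 was the highest for both. The third that rose was the dopamine synthesis gene Th, from 0.128, 0.111 and 0.106 RPKM to 0.274, 0.605 and 0.423 RPKM. The member that fell was the glial gene S100b, from 3.16, 3.50 and 3.81 RPKM to 1.43, 1.05 and 0.700 RPKM. Of 43 fibroblast and matrix genes 13 rose and 1 fell, Dpt, by 1.70. The matrix metalloproteinase Mmp9 rose from 6.83, 6.87 and 5.91 RPKM to 31.2, 27.0 and 41.0 RPKM, and Mmp10 and Mmp13 by 3.76 and 2.91, while the collagens Col1a1 and Col1a2 had log2 fold changes of 0.48 ± 0.12 and 0.26 ± 0.09. Of 23 endothelial and adhesion genes 6 rose and none fell, a share of called genes near the 22.2% of all genes tested. Selp, which holds rolling leukocytes, went from 0.0880, 0.107 and 0.0873 RPKM to 1.44, 0.637 and 1.20 RPKM, and the adhesion molecule Vcam1 from 3.07, 2.69 and 3.12 RPKM to 9.38, 6.84 and 8.75 RPKM. The general endothelial genes Pecam1 and Cdh5 were not called, with log2 fold changes of 0.48 ± 0.08 and 0.40 ± 0.11.

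Genes of pancreas, stomach and liver varied among the controls. Of 24 tested 13 fell and 1 rose, but the groups did not overlap for only 7, against 68.1% of all genes tested. The number lower was 6 against the Casp8 D387A KI embryos, 7 with both Mlkl-/- groups pooled or in a fit of the 6 libraries alone and 8 without mutant 1 or with limma-voom, and DESeq2 called 6 of the 7 for which it gave a p-value. The summed level was 1319.9 to 1739 CPM in controls and 87.2 to 102 CPM in mutants. Afp, a plasma protein that fetal gut makes along with liver, stood at 504, 548 and 402 RPKM in controls and 25.5, 13.2 and 23.8 RPKM in mutants (-4.54 ± 0.33), and varied far less among controls than Alb. Pga5, a pepsinogen, stood at 3.17, 3.97 and 57.0 RPKM in controls and had 1 read over all mutants. The fall of Tff1 rested on control 3: the log2 fold change was -5.13 with all embryos and 4.39, not called, without that library (edgeR adjusted p = 0.172).

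Of 41 genes of stress, glycolysis and hypoxia 20 rose and 4 fell, with a median log2 fold change of 0.96. Hk2, a hexokinase that starts glycolysis, went from 3.39, 3.31 and 4.45 RPKM to 54.7, 54.0 and 39.8 RPKM (3.73 ± 0.33, edgeR adjusted p = 3.97e-08). Pkm, Aldoa and Eno1 of the same pathway rose by 1.76, 1.31 and 1.25. Chac1, which the amino acid response induces, went from 0.554, 0.674 and 0.825 RPKM to 7.70, 9.50 and 7.25 RPKM. The members that fell were the hypoxia gene Ndrg1, from 576, 546 and 561 RPKM to 199, 302 and 138 RPKM, and Sesn2, Dnajb9 and Gclm, by 1.31, 1.30 and 1.29. No nuclear gene of the respiratory chain was called among 33 by edgeR, DESeq2 or limma-voom, although 26 were lower with an unadjusted p under 0.05 and the median log2 fold change was -0.43. Of 13 protein-coding transcripts of the mitochondrial genome 5 fell (8 without control 3 or with both Mlkl-/- groups pooled, and 11 against the Casp8 D387A KI embryos) and none rose, with a median of -0.99 and a summed level of 17226 to 23336 CPM in controls and 8610.5 to 9520.1 CPM in mutants. The furthest was mt-Nd4, of complex I, from 2437, 2128 and 1769.9 RPKM to 759, 794 and 756 RPKM (-1.46 ± 0.15), and the others were mt-Nd1, mt-Nd3, mt-Cytb and mt-Co3, by 1.33, 1.44, 1.20 and 1.09.

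Of 18 imprinted and fetal growth genes 3 rose and 3 fell. H19, a long non-coding RNA of fetal tissue, went from 7223, 6908 and 6865 RPKM to 1457, 1239 and 1213 RPKM (-2.43 ± 0.28), and its loss in CPM was exceeded only by that of Apoa4 among all genes tested. Igf2, the growth factor of the same locus, went from 588, 566 and 545 RPKM to 221, 179.7 and 195 RPKM. Cdkn1c, a growth inhibitor, went from 865, 746 and 877 RPKM to 138, 108 and 100.1 RPKM. All 3 were lower in every mutant than in every control. The members that rose were Igfbp2, a binding protein of insulin-like growth factors, from 54.3, 51.1 and 45.8 RPKM to 138, 204 and 148 RPKM, Lin28b, which blocks let-7 microRNAs, by 1.70, and the chromatin gene Hmga2, by 1.06, which lost its call without mutant 2 (0.89).

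The change was next compared with that in intestines where caspase-8 carried C362A, which removes the catalytic cysteine, in place of D387A, again without Cflar and Mlkl. Each genotype was set against its own Mlkl-/- controls, in a fit of 30 libraries and 19643 genes. The effects differed for 15 genes (0.0764%), 2 higher and 13 lower in the D387A mutants, and 4043 genes had an unadjusted p under 0.05. In the same fit the D387A mutants had 4298 genes called and the C362A mutants 4890, of which 3218 were called in the same direction in both and 12 in opposite directions. Gm38257, with a mean of 5.92 reads over the 12 libraries compared, had a lower effect in the D387A mutants and the largest difference. Among genes with a mean of at least 50 reads Marco differed most, with a log2 fold change of 7.19 ± 0.41 in the D387A mutants and 1.94 ± 0.47 in the C362A mutants (difference 5.24 ± 0.78, edgeR adjusted p = 0.00777), and this difference was 10.04 without control 2, which held the few reads of this gene among the controls, and lost its call without control 1 of the C362A set (edgeR adjusted p = 0.0965). The other gene with a higher effect in the D387A mutants was Mab21l3, at 2.32 and 0.67. Mcpt2, a mast cell protease, rose in both, by 1.64 ± 0.36 and 4.83 ± 0.40, and so did Gsdmc4, by 2.25 ± 0.40 and 5.27 ± 0.44. Fabp1 had log2 fold changes of -7.50 ± 0.28 and -5.81 ± 0.26, and Itgae, an integrin of lymphocytes within the epithelium, of -1.59 ± 0.36 and 1.05 ± 0.30. Of the 66 CXC, CC and NF-kB list genes none was called by edgeR in this test, and 14 had an unadjusted p under 0.05. The medians of these lists were 2.16, 2.42 and 1.31 on the log2 scale in the D387A mutants and 2.12, 2.58 and 1.31 in the C362A mutants. The count of 15 depended on single libraries: it was 645 without C362A mutant 3, 366 without control 3 of the C362A set, 36 without D387A mutant 3, and between 0 and 9 without C362A mutant 2, without any other D387A mutant, without any of the D387A controls and without the other controls of the C362A set. The sets also differed in the share of reads on genes, which was 76.6% to 83.9% in the C362A mutants and their controls, and their Cflar deletions were made with different guides.

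The same genotypes were compared in MEFs, which are connective tissue cells in culture, in a fit of 24 libraries and 18862 genes. The effect in intestine differed from that in MEFs for 2887 genes (15.3%), 1377 higher and 1510 lower in intestine, and in MEFs themselves 44 genes were called, 37 higher and 7 lower. Of 19 CXC list genes 8 had a higher effect in intestine and 2 a lower one. Of 21 CC list genes 9 were higher, and of 24 NF-kB list genes 14 were higher, with none lower in either list. Nfkbia rose in both settings, by 2.75 ± 0.23 in intestine and 1.11 ± 0.22 in MEFs (difference 1.64 ± 0.31, edgeR adjusted p = 2.62e-04). Ccl2 rose in both, by 6.05 ± 0.45 in intestine and 1.94 ± 0.29 in MEFs (difference 4.11 ± 0.56, edgeR adjusted p = 6.16e-06). Ccl20 rose by 3.41 ± 0.28 in intestine and 2.44 ± 0.41 in MEFs, and Nfkbie, another inhibitor of NF-kB, by 1.81 ± 0.24 and 1.55 ± 0.24, and neither difference was called. Tissue and culture, and any difference in library kit, cannot be told apart here, although each effect was taken against controls of its own kind.

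**Figure D5:**
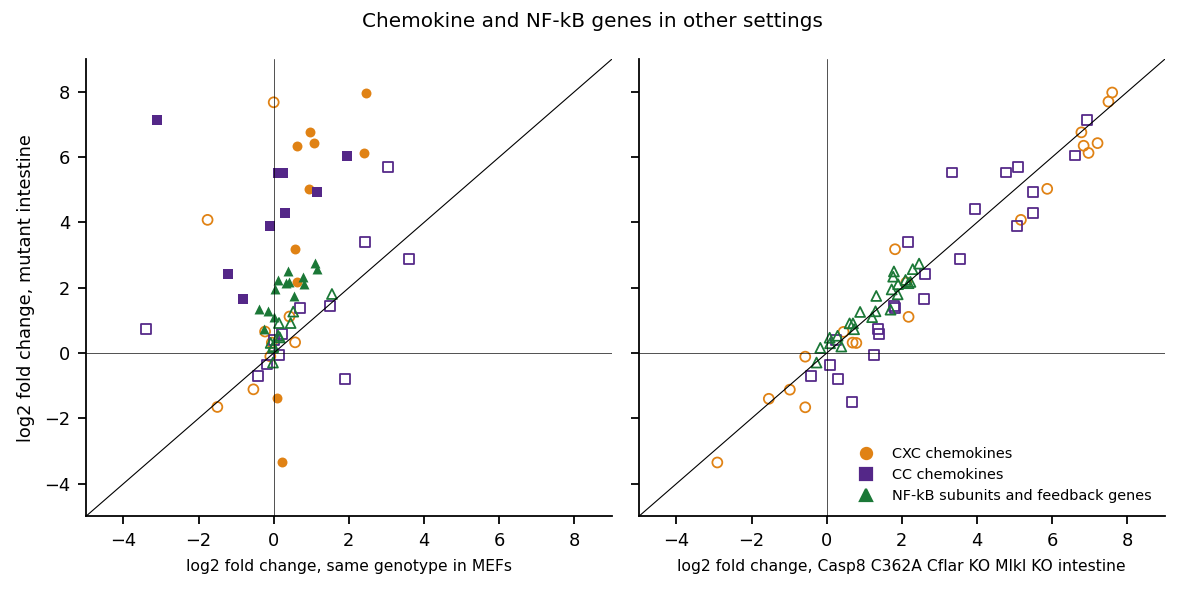
Log2 fold change in the mutant intestine (vertical axis) of CXC chemokine genes (orange), CC chemokine genes (purple) and NF-kB genes (green) against the change of the same genotype in MEFs (left) and of Casp8 C362A/C362A Cflar-/- Mlkl-/- intestine (right), filled where the 2 effects differed by the test and open where they were not called, with the line of equal effects. Points lie along the line at the right and above it for the most part at the left.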

How the data were processed

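Per the labels and the study's methods, RNA was sequenced as single-end reads, reads were aligned to the mouse genome (GRCm38/mm10) with GSNAP, and uniquely mapped reads were used. The counting program, annotation and strand setting are not given in the sources used here, and the sources name different library kits, so a gene and an antisense or overlapping partner, and close paralogs, may share reads. The authors deposited for each library a table of 52636 genes with raw counts, RPKM and gene width. Of the gene IDs 52489 matched GENCODE M21, which supplied symbols. The deposited RPKM gave the library totals behind the shares of reads on genes, and the levels printed were recomputed from the deposited counts with TMM-scaled totals.

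Counts were tested with edgeR 4.0.16 (quasi-likelihood, filterByExpr, TMM) in R 4.3.3, in a fit of all 18 libraries of the D387A intestine set with group as the only term, and 18360 genes passed the filter. The study used limma, and limma-voom (3.58.1) and DESeq2 1.42.0 were run as alternatives, beside a fit of the 6 libraries alone, other filters, other control groups, a replicate block, each replicate left out, and the sex of the embryo as a term, which was chosen after seeing the data. Differences from the C362A intestines and from MEFs were interaction contrasts. No replicate pair agreed within sampling noise, the lowest chi-square per gene being 5.83. The same replicate number marked no pairing (correlations of deviations 0.207, -0.123 and -0.026 for numbers 1, 2 and 3).

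The 44 gene lists and their members were chosen with earlier results of these data known. Genes named are drawn from the targeted genes, the first 3 of each list, the 3 largest called rises and falls of each list, the 10 largest rises and falls over all genes among called genes with a mean of at least 50 reads and no overlap, the 10 largest gains and losses in CPM, genes the study names, and for the difference tests the 5 largest differences in each direction at that mean and the chemokine and NF-kB lists. For the difference from MEFs only members of those lists are named. The other genes named, chosen after their values were seen, are Afp, Aldoa, Ang4, Apoe, Areg, Best2, Birc3, C1ra, C1s1, C2, C4b, Casp4, Cdhr2, Cdhr5, Cp, Dgat1, Dgat2, Duox2, Eno1, Ereg, Fdps, Foxa1, Gata5, Gata6, Gclm, Gm38257, Gzma, Il11, Il18bp, Il2rb, Insig1, Itgae, Klf5, Mab21l3, Mmp10, Mmp13, Mogat2, Nlrp3, Nr1h4, Pkm, Pla2g2a, Prdm1, Rbp2, Sar1b, Scarb1, Slc11a2, Slc19a3, Slc2a1, Slc40a1, Slc46a1, Slc51a, Slc51b, Sox9, Tap1, Tnfrsf1b, Vil1, Vwa5b2 and mt-Co3. A gene with no read in a group was set at 3 reads over the group. Levels of 3 embryos a group limit the precision throughout. Results for some genes are not reported here.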

Additional observations from a re-analysis of the deposited data

Results flagged for a closer look

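The change in the mutant intestine differed from the change in the C362A intestine, by a test of the difference itself, for 15 genes, and this count moved with single libraries as given above. It differed from the change of the same genotype in MEFs for 2887 genes. Among the chemokine and NF-kB lists, the effects in intestine and MEFs differed for 10 CXC genes, 9 CC genes and 14 NF-kB genes. The 2 CXC genes with a lower effect in intestine than in MEFs were Cxcl15 (log2 fold changes of -3.34 and 0.21) and Cx3cl1 (-1.39 and 0.09).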

How the results depend on the processing

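Over the alternatives the number of genes called ranged from 2778 to 5001, higher from 1186 to 2042 and lower from 1592 to 2959. With single libraries left out it ranged from 3960 to 4138 (1651 to 1784 higher, 2287 to 2354 lower). The same replicate number marked no pairing, and a fit with a replicate block called 4060 genes, 1711 higher and 2349 lower. A fit with the sex of the embryo as a term, chosen after seeing the data, called 4073, 1722 higher and 2351 lower. The number of genes whose effect differed from the C362A intestines, 15, was 7 with limma-voom and ranged from 0 to 645 with single libraries left out, and the number that differed from MEFs ranged from 2241 to 3045 (2715 to 3023 with single libraries left out). Of 212 genes named above and called, Adgre1 left out, 195 kept their direction and call under every alternative run and 17 lost the call under at least 1. Only Tff1 and Alb reversed: Tff1 had a log2 fold change of 0.07 and Alb of 1.07 against the Casp8 D387A controls, and with single libraries left out Tff1 ranged from -6.84 to 4.39 (without control 3) and Alb from -8.79 to 1.17 (without control 2). Against the Casp8 D387A controls Fdps had a log2 fold change of -0.82 and Klf5 of 0.82, neither of them called. Of 1496 counts of list members over the alternatives 1432 stayed within 1.5 times of the count reported. A minimum mean of 50 reads left 8 neutrophil genes higher in place of 20 and 8 Toll-like receptor genes in place of 14, since fewer genes were tested, and with both Mlkl-/- groups pooled as controls 26 cell cycle genes were higher in place of 15. For the remaining list counts that moved the cause was not tested. DESeq2 gave no p-value for 32 genes, which were not counted as lost calls. Leaving aside the targeted and sex-linked lists, in the 19 list directions in which edgeR called no member DESeq2 and limma-voom called 0 as well. In those directions 57 of 464 members had an unadjusted p under 0.05, against 11609 of all 18360 genes tested in either direction. Depth limits the genes with few reads, among them the interferon genes and Cd3e.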

Other observations

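Of 460 antisense genes tested 25 were called higher and 165 lower (41.3% called), and of 451 long intergenic non-coding RNAs 40 were higher and 120 lower (35.5%). Of 245 processed transcripts 8 were higher and 67 lower (30.6%), and of 284 TEC genes (to be experimentally tested) 12 were higher and 56 lower (23.9%). Of 1291 processed pseudogenes 196 were higher and 43 lower. Protein-coding genes had 1416 higher and 1821 lower of 15238 (21.2%), and these shares were not tested against each other. Reads on antisense genes cannot be told from those of the partner strand where counting ignored strand, and processed pseudogenes share sequence with their parent genes.

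Some of the largest changes lay outside the lists. 2010109I03Rik, a gene of unnamed product, had 1 read in controls and 551 in mutants, a ratio of 534 (95% interval 95.5 to 21147). G6pc, the enzyme that releases glucose from liver and gut, went from 16.9, 16.0 and 16.0 RPKM to 0.0179, 0.0741 and 0 RPKM. Gpx3, an extracellular glutathione peroxidase, went from 3325, 3008 and 2936 RPKM to 337, 169 and 315 RPKM. Every mutant lay below every control for G6pc and Gpx3. Lypd8, which keeps bacteria off the colon surface, went from 1084, 1177 and 1204 RPKM to 2698, 2161 and 2418 RPKM, and its log2 fold change of 1.07 was 0.99 without mutant 1. Dmbt1, a scavenger protein of mucus, went from 77.3, 58.5 and 84.0 RPKM to 286, 334 and 235 RPKM. Among general genes with large gains in CPM, the chaperone Hsp90ab1 went from 380.5, 363 and 304 RPKM to 693, 774 and 646 RPKM (log2 fold change 1.01, and 0.94 without mutant 2 and 0.92 without control 3), and the nucleolar gene Ncl from 56.6, 57.6 and 54.5 RPKM to 137, 146 and 147 RPKM.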
